A study of Mus musculus with 4 samples.

Results

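The organic ion and drug transporter genes are the carriers and pumps that move drugs, bile acids, hormones, carnitine and other charged organic compounds across epithelial membranes. They were taken as all protein-coding RefSeq genes whose symbol starts with Slc22a, Slco, Slc47a, Abcb or Abcc followed by a number. That rule gave 61 of 21887 protein-coding genes on chromosomes 1 to 19, X and Y: 25 Slc22a, 14 Slco, 2 Slc47a, 10 Abcb and 10 Abcc genes. Slc22, Slco and Slc47 proteins are carriers without ATP hydrolysis, whereas Abcb and Abcc proteins are ATP-driven pumps, apart from a few that act as channel subunits. In the small intestine the pumps of the apical membrane return xenobiotics to the lumen, and basolateral members pass conjugates and bile acids to the blood. Several members are better known from liver, kidney, brain barriers or testis than from the gut.

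Open chromatin was mapped with ATAC-seq, in which the Tn5 transposase cuts accessible DNA. The cells were organoids grown from crypts of C57BL/6J mice, taken from the proximal part of the small intestine and labelled as jejunum, with 30000 cells per library. In such a bulk sample, fewer cells of a type and less open chromatin per cell cannot be told apart. The 0 h organoids stayed in medium with EGF, R-spondin (which strengthens Wnt signalling), Noggin (a secreted BMP antagonist), CHIR99021 (which raises Wnt signalling by blocking GSK3) and valproic acid (which blocks histone deacetylases), and received no BMP2. The 72 h organoids spent 72 h with 100 ng/mL recombinant BMP2 and without CHIR99021, valproic acid and Noggin, so both groups shared EGF and R-spondin, and BMP2 and the medium cannot be told apart. Each time point is 1 library, the labels do not say how many mice it came from, and libraries of 24 h and 48 h are not analysed here. The question behind the time course was which chromatin opens or closes as BMP exposure lengthens.

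The deposited peak lists give a position and a name for each peak, with no height, score or read count, so read depth is unknown and a difference is a difference in calling. A peak called at a p-value of 1e-5 is named lenient if it did not pass 1e-10, and strict if it did. A peak was classed as shared when a 1e-5 peak of the other library overlapped it by at least 1 bp, and otherwise as 0 h only or 72 h only. With 1 library per time no difference has a replicate check and no test was made; shares carry exact Clopper-Pearson 95% intervals, which cover counting error only. The 0 h library held 35857 peaks (19910 strict) and the 72 h library 41343 (25040 strict). Of 10 intestinal epithelial marker genes, 9 had a peak within 1 kb of a gene end in both libraries, among them Epcam, Cdh1, Vil1 and Cdx2 (49.9% of all genes). The same held for 1 of 6 fibroblast markers (Col1a1) and for none of 5 immune, 4 endothelial, 4 hepatocyte and 4 kidney tubule markers. The remaining epithelial marker, Krt20, had such a peak at 72 h only, with 2 peaks at 0 h and 6 at 72 h, 3 of them strict and 72 h only. The 10 epithelial markers together held 59 peaks at 0 h and 62 at 72 h. Immune markers held 0 peaks at 0 h and 1 at 72 h anywhere in their window, fibroblast markers 7 and 7, endothelial markers 4 and 6, hepatocyte markers 0 and 2, and kidney tubule markers 1 and 1; their part in the results was not tested.

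Of the 61 transporter genes, 44 (72.1%, 95% interval 59.2 to 82.9) had at least 1 peak whose midpoint lay in the gene or, with no nearer gene, within 50 kb of it; the share over all protein-coding genes was 69.7%. These 44 genes held 128 peaks at 0 h and 147 at 72 h. Overlapping peaks of the same library were counted separately, and with them merged the numbers were 109 and 131. The 17 without an assigned peak were Slc22a2, Slc22a6, Slc22a8, Slc22a17, Slc22a19, Slc22a20, Slc22a22, Slc22a27, Slc22a28, Slc22a30, Slco1a1, Slco1a5, Slco1a6, Slco6c1, Slco6d1, Abcb5 and Abcc9. Among them are Slc22a6 and Slc22a8, the organic anion carriers of the kidney tubule, and Abcc9, the sulfonylurea receptor of heart and smooth muscle. Some of the 17 had a peak close by that went to another gene. The nearest 72 h peak lay 3.10 kb from the start of Slc22a20 and 22.6 kb from the outer start of Slco1a5. Counting every gene within 50 kb of a peak gave 49 transporter genes with a peak, and this was not counted over all genes. Within the window, the farthest assigned peak lay 45.7 kb outside Abcc4. The nearest peak beyond the window that had no other gene within 50 kb lay 56.3 kb outside Slc22a12.

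**Figure D1:**
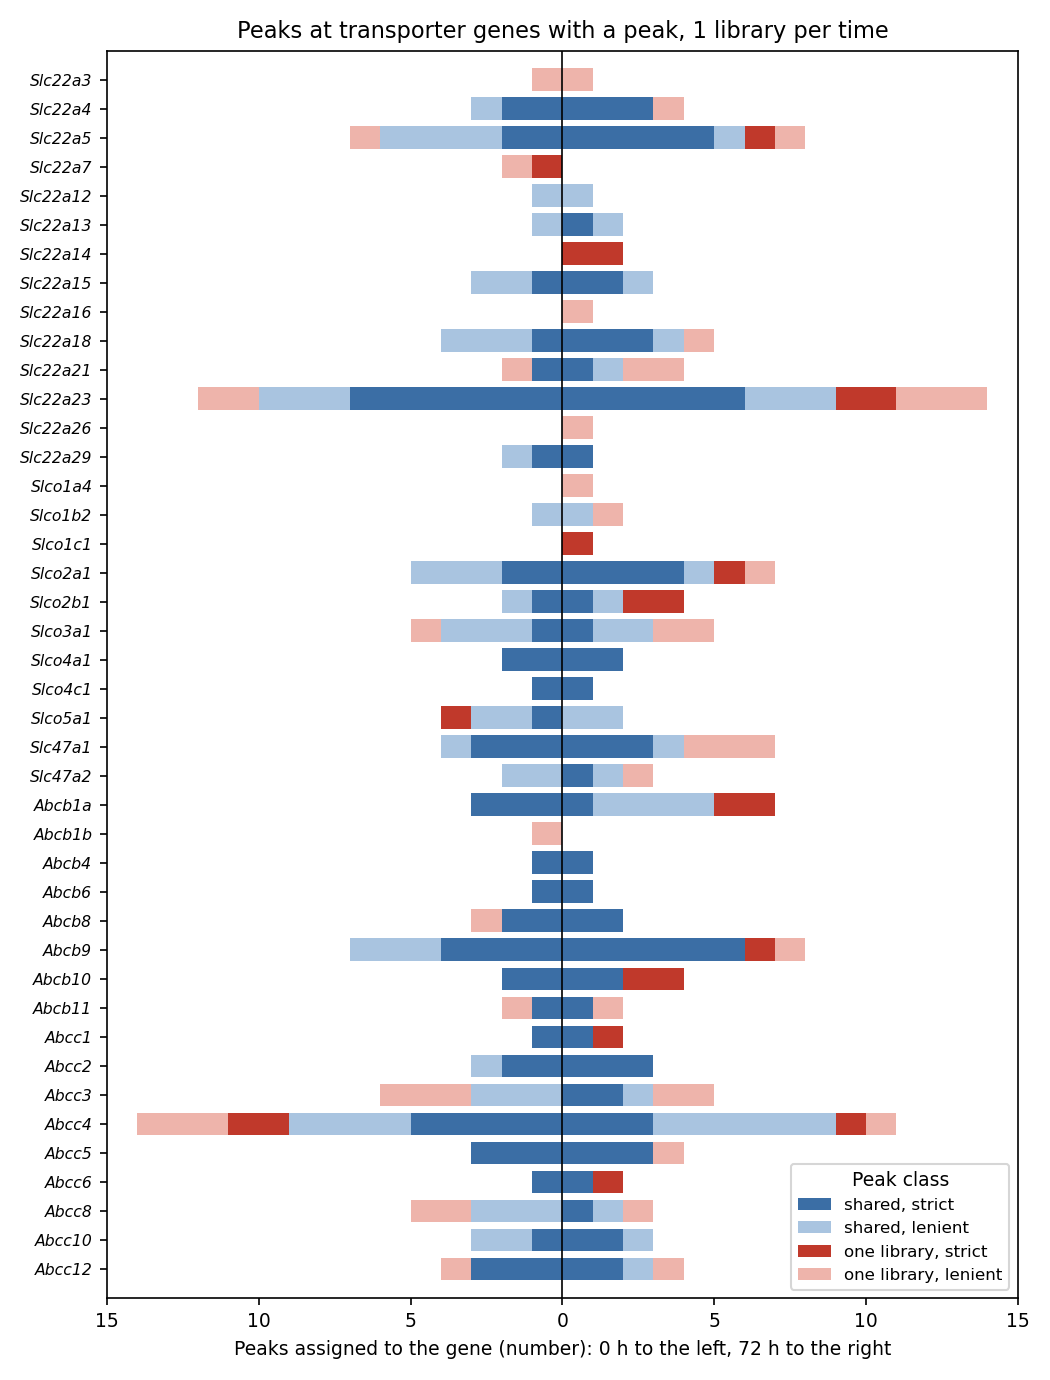
Number of peaks assigned to 42 of the 44 transporter genes with a peak, at 0 h (left of zero) and 72 h (right of zero), by class: shared or called in 1 library only, and strict (passing 1e-10) or lenient. Slc22a23 (12 and 14 peaks) and Abcc4 (14 and 11) held the most, and the strict peaks of 1 library only, in dark red, numbered 4 at 0 h and 17 at 72 h.

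RefSeq's promoter table (GRCm38.p6, the assembly that mm10 denotes) held 56 start windows for 49 of the 61 genes. A listed start lay under a peak in both libraries at 16 of the 49 genes (32.7%, 19.9 to 47.5), against 48.4% of all genes with a listed start. At none of the 49 did a peak cover a listed start in 1 library only; over all genes this happened at 4.02% for 0 h and 2.21% for 72 h, and both values lie within the interval of 0 to 7.25% that 0 of 49 allows. The 12 genes without a listed start are not in these counts; among them, lenient peaks of 1 library only lay within 1 kb of a gene end at Abcc8 and Abcb8 (0 h) and Slc47a1 (72 h), for example. At 13 of the 16 the start lay under a strict peak in both libraries (26.5% of the 49, 14.9 to 41.1). The same share was not computed over all genes. The 13 genes were Abcc2, Abcc4, Abcc5 and Abcc10, Abcb4, Abcb6, Abcb9 and Abcb10, Slc22a4, Slc22a5 and Slc22a23, and Slco4a1 and Slco4c1. The start of Slco2a1, the prostaglandin transporter, lay under lenient peaks in both. The start of Slc22a18, an imprinted carrier, and that of Slc22a15 lay under a lenient peak at 0 h and a strict one at 72 h, although at Slc22a15 a strict 0 h peak overlapped the same site.

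Start windows are shown for genes that differ in how their start was called. Each line gives the 250 bases before the listed start, 5′ to 3′ in the direction of transcription; capitals mark matches to the motifs searched, on either strand. Abcc2 and Slc22a5 were strict at both times, Slc22a18 was lenient at 0 h and strict at 72 h, and Slco2b1 (outermost of 3 starts) and Slco1b2 lay under no peak.
Abcc2, chr19:43782058-43782307, + strand: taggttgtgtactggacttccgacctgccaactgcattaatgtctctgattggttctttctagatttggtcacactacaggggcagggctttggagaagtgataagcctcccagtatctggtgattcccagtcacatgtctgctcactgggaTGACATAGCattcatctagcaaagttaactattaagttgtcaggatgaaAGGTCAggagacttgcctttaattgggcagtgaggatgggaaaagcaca
Slc22a5, chr11:53891704-53891953, - strand: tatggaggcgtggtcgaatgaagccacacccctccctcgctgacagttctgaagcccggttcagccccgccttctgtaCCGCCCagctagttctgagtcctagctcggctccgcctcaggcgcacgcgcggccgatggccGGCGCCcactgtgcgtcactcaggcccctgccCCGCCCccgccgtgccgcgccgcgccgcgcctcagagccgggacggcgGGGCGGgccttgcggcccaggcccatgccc
Slc22a18, chr7:143473539-143473788, + strand: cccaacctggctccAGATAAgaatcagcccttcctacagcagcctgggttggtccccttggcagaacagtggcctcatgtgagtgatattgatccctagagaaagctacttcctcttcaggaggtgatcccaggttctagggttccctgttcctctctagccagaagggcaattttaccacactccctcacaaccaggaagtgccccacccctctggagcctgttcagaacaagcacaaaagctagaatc
Slco2b1, chr7:99711341-99711590, - strand: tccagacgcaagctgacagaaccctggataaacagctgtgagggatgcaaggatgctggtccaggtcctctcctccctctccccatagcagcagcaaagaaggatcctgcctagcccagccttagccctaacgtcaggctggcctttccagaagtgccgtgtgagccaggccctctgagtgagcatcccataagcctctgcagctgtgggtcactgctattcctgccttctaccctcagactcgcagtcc
Slco1b2, chr6:141629268-141629517, + strand: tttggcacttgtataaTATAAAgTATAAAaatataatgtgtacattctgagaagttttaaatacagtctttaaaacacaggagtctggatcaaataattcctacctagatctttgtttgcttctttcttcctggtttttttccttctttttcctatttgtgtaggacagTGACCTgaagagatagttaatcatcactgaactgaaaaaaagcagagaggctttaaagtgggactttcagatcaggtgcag
The capitals in Abcc2 are TGACNNNGC (the antioxidant response element of NRF2) and AGGTCA (the single nuclear receptor element). In Slc22a5 they are GGGCGG (SP factors) and GGCGCC (a SMAD element rich in G and C). In Slc22a18 they are AGATAA, the element of the GATA family. In Slco1b2 they are TATAAA, the core promoter box of that name, and AGGTCA. The printed Slco2b1 bases held no match.

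The windows differed in base composition with the state of the start. The 16 windows under a peak in both libraries held a median of 64.0% G and C bases and 22 CpG dinucleotides over their 300 bases (62.3% and 23 over all such windows of protein-coding genes). The 40 windows under no peak held 47.2% and 3 (49.3% and 4). The lowest value among the open starts was 45.0%, with 1 CpG, at Abcc2, the apical pump for glucuronide, glutathione and sulfate conjugates, and the highest was 77.3% at Slc22a23. Among the starts under no peak the highest were 65.7% at Abcc9 and 60.0% at Slc47a2.

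**Figure D2:**
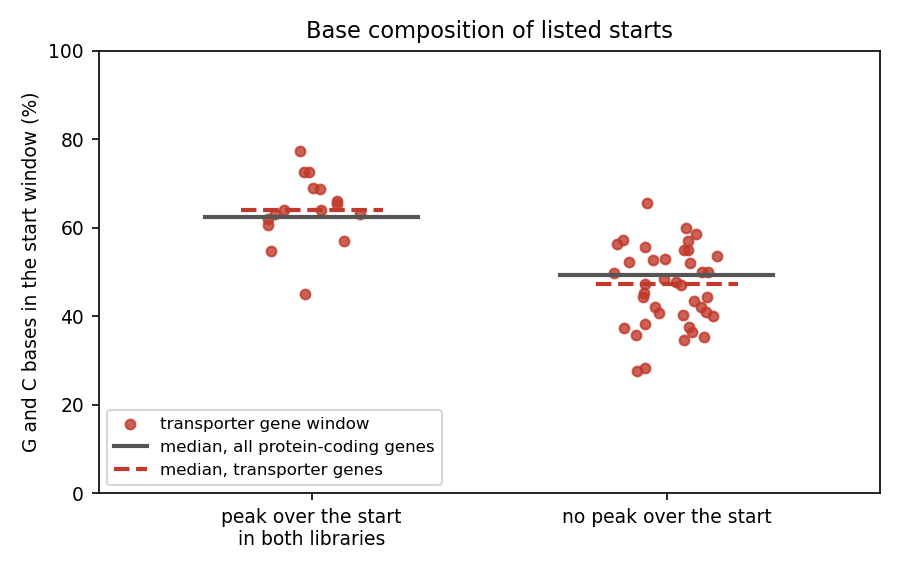
Share of G and C bases in the RefSeq start windows of transporter genes, each a point spread sideways for legibility, for windows under a peak in both libraries and windows under no peak. Medians were 64.0% and 47.2% for the transporter genes (dashed) and 62.3% and 49.3% for all protein-coding genes (solid); Abcc2 is the lowest open point at 45.0%.

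Motif matches in the 56 windows were counted beside those in all windows. GGGCGG was found in 18 windows (32.1%, against 46.2% of the 21263 windows of protein-coding genes), and in 12 of the 16 open ones (71.3% of all open windows). AGGTCA and TGACNNNGC were each found in 10 windows (17.9%), against 14.7% and 13.0% of all windows. TATAAA was found in 9 (16.1% against 12.6%), TTTATNG (CDX) in 5 (8.93% against 9.58%), AGATAA in 4 (7.14% against 9.65%), GGCGCC in 4 (7.14% against 15.3%), TGANTCA (AP-1) in 2 (3.57% against 6.99%) and the HNF1 motif in 1, at Slc22a29 (1.79% against 0.372%). No window held the HNF4-type letters CAAAGTCCA or CAAAGGTCA (0.451% and 0.447% of all windows), the SMAD palindrome GTCTAGAC (0.226%) or the CREB site TGACGTCA (2.23%). AGGTCA is contained in CAAAGGTCA; the other motifs were counted as written, on both strands.

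Counting either gene boundary, which also covers the genes without a listed start, 23 of the 61 had a peak within 1 kb in both libraries (37.7%, 25.6 to 51.0; 49.9% of all genes). A further 4 had one at 0 h only (background 3.97%) and none at 72 h only (0 to 5.87%; background 2.09%). The 4 were Abcb1b, Abcc8, Slc22a3 and Slc22a29. Only lenient peaks were involved, and at Slc22a29 the 0 h peak belonged to a shared site just beyond the 1 kb limit. Among the 23, Abcc1 (a basolateral glutathione-conjugate pump), Abcc6 and Slco3a1 had strict peaks there in both libraries.

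Over all assigned peaks, at starts or away from them, the transporter genes were called at more places at 72 h, to about the extent of genes at large by peaks. Of their 147 peaks at 72 h, 45 were 72 h only (30.6%, 23.3 to 38.7), against 29.0% of all peaks assigned to a gene. Of their 128 peaks at 0 h, 24 were 0 h only (18.8%, 12.4 to 26.6), against 19.7%. Strict peaks of 1 library only numbered 17 at 72 h (11.6%, 6.88 to 17.9; 10.4% of all) and 4 at 0 h (3.12%, 0.858 to 7.81; 3.37% of all). All 21 were in the authors' lists of regions enriched at that time, and no other peak of these genes was. These shares lie near the background in both directions and are no result about the transporter genes.

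**Figure D3:**
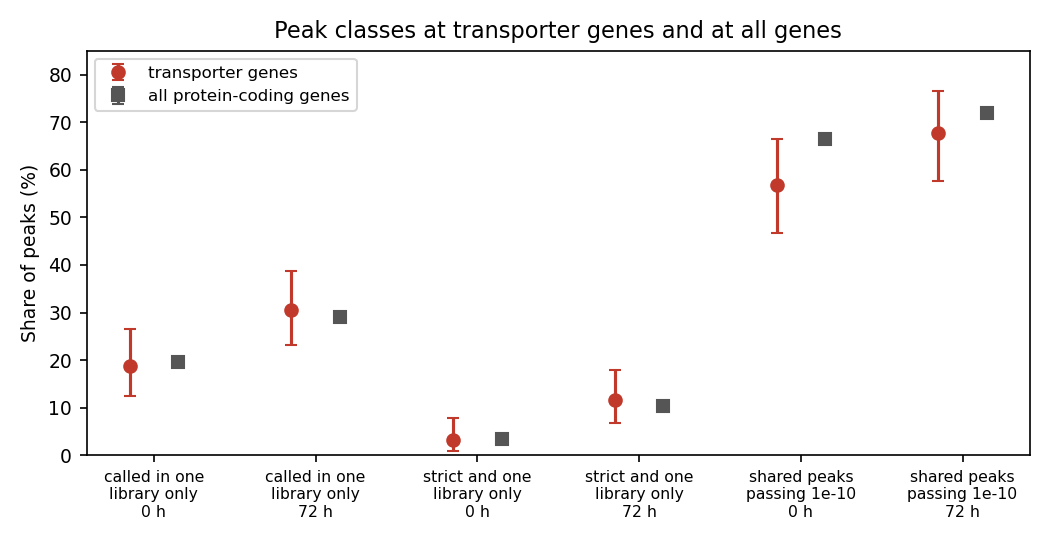
Share of peaks, in percent, at transporter genes (circles) and at all protein-coding genes (squares), for 3 quantities in each library; bars are exact 95% intervals and cover counting error only. Each transporter interval holds the value of all genes except that the shared 0 h peaks passing 1e-10 have an upper bound (66.4%) level with the value of all genes.

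By genes, 28 of the 44 with a peak (63.6%, 47.8 to 77.6) had a 72 h-only peak at 1e-5, against 39.8% of all genes with a peak. A strict 72 h-only peak was present at 12 (27.3%, 15.0 to 42.8; background 18.6%) and a strict 0 h-only peak at 3 (6.82%, 1.43 to 18.7; background 6.66%). A lenient or strict 0 h-only peak was present at 15 (34.1%, 20.5 to 49.9; background 29.7%). The transporter genes are long: those with a peak have a median length of 52.2 kb, against 23.3 kb for all genes with a peak. Genes of like length were not compared, and the part of length in these shares was not tested. Among genes with 3 or more peaks over both libraries, 10 of 31 transporter genes had a strict 72 h-only peak (32.3%, 16.7 to 51.4; background 25.4%). The number of peaks was higher at 72 h at 22 genes (50.0%; background 37.0%), lower at 9 (20.5%; background 24.1%) and equal at 13, with a median difference of 0.5 peaks (0 over all genes). All peaks were at 72 h for 5 genes, Slc22a14, Slc22a16, Slc22a26, Slco1a4 and Slco1c1 (11.4%; background 7.55%), and at 0 h for 2, Slc22a7 and Abcb1b (4.55%; background 6.95%).

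The strict 72 h-only peaks were too few to set their positions apart from those at all genes. None of the 17 at 72 h was within 1 kb of a gene end (interval 0 to 19.5%), against 6.55% of all such peaks. Of the 17, 11 lay inside the gene (64.7%, 38.3 to 85.8; 55.9% of all) and 6 outside (35.3%, 14.2 to 61.7; 37.6% of all). Their median distance to a gene end was 17.8 kb (13.8 kb over all such peaks). All 4 strict 0 h-only peaks lay inside; the interval of 39.8 to 100% holds the 44.0% of all such peaks. Of the shared peaks, 30 of 104 at 0 h (28.8%, 20.4 to 38.6) were within 1 kb, against 47.7% of all shared peaks. The same share at 72 h was 27.5% (19.1 to 37.2; 28 of 102) against 47.9%.

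The organic cation and carnitine carriers Slc22a5, Slc22a21 and Slc22a4 lie side by side on chromosome 11, between 53864542 and 54030040 (mm10). Together they held 12 peaks at 0 h and 16 at 72 h, of which 2 and 5 were of 1 library only. Slc22a5 encodes the high-affinity carnitine transporter OCTN2. It had 7 peaks at 0 h, 2 of them strict, and 8 at 72 h, 6 of them strict. Its start, shown above, was strict in both libraries. A strict 72 h-only peak lay 17.2 kb upstream of the start (chr11:53908621-53909221), with a lenient 72 h-only peak at 19.6 kb, and a lenient 0 h-only peak lay 16.8 kb into the gene. Shared sites 12.6 kb upstream of the start and 5.23 kb beyond the far end of the gene were lenient at 0 h and strict at 72 h. The calls at Slc22a5 thus differed inside the gene and on both sides of it, and not at its start.

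Slc22a4 encodes OCTN1, a transporter of ergothioneine. It had 3 peaks at 0 h and 4 at 72 h, with a start strict in both, a shared site 5.03 kb upstream of the start that was strict at 72 h only, and a lenient 72 h-only peak inside the gene. Slc22a21, the carnitine transporter OCTN3 of mice, had 2 and 4 peaks, with lenient peaks of 1 library only in each. Slc22a3 (OCT3) had 1 lenient peak in each library at different places, 0.705 kb inside the start at 0 h and 21.8 kb inside at 72 h. Slc22a16 had 1 lenient 72 h-only peak, 22.1 kb outside the gene.

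Among the organic anion carriers of Slc22, 5 of 13 had a peak. Of the 13, 8 lie in a block on chromosome 19 from Slc22a19 to Slc22a6, over 955 kb, which held 2 peaks at 0 h and 2 at 72 h in all, at Slc22a26 and Slc22a29. Slc22a7, which encodes OAT2 of liver and kidney, was called at 0 h alone, with a strict 0 h-only peak (chr17:46436636-46437236) and a lenient one, both inside the gene. Slc22a12 (the renal urate carrier) had 1 shared lenient peak in each library. Slc22a13 had 1 lenient peak at 0 h and 2 at 72 h, 1 of them strict, all within 1 kb of its far end with 1.94 to 2.33 kb to Slc22a14.

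Slc22a23, an orphan carrier, had 12 peaks at 0 h and 14 at 72 h, 7 and 8 of them strict. Its strict 72 h-only peaks lay 40.1 and 70.1 kb into the gene (chr13:34304803-34305403 and chr13:34274841-34275441). Not every site moved in that direction: a shared site 45.4 kb into the gene was strict at 0 h and lenient at 72 h, while one at 24.5 kb was lenient at 0 h and strict at 72 h. Slc22a18 had 4 and 5 peaks, 1 and 3 of them strict, with the start and a site 2.29 kb into the gene strict at 72 h only. Slc22a14, known from sperm, had no peak at 0 h and 2 strict 72 h-only peaks, 3.75 and 4.43 kb outside the gene and 8.62 and 7.93 kb from the neighbouring gene Acaa1b, a peroxisomal thiolase of fatty acid oxidation.

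**Figure D4:**
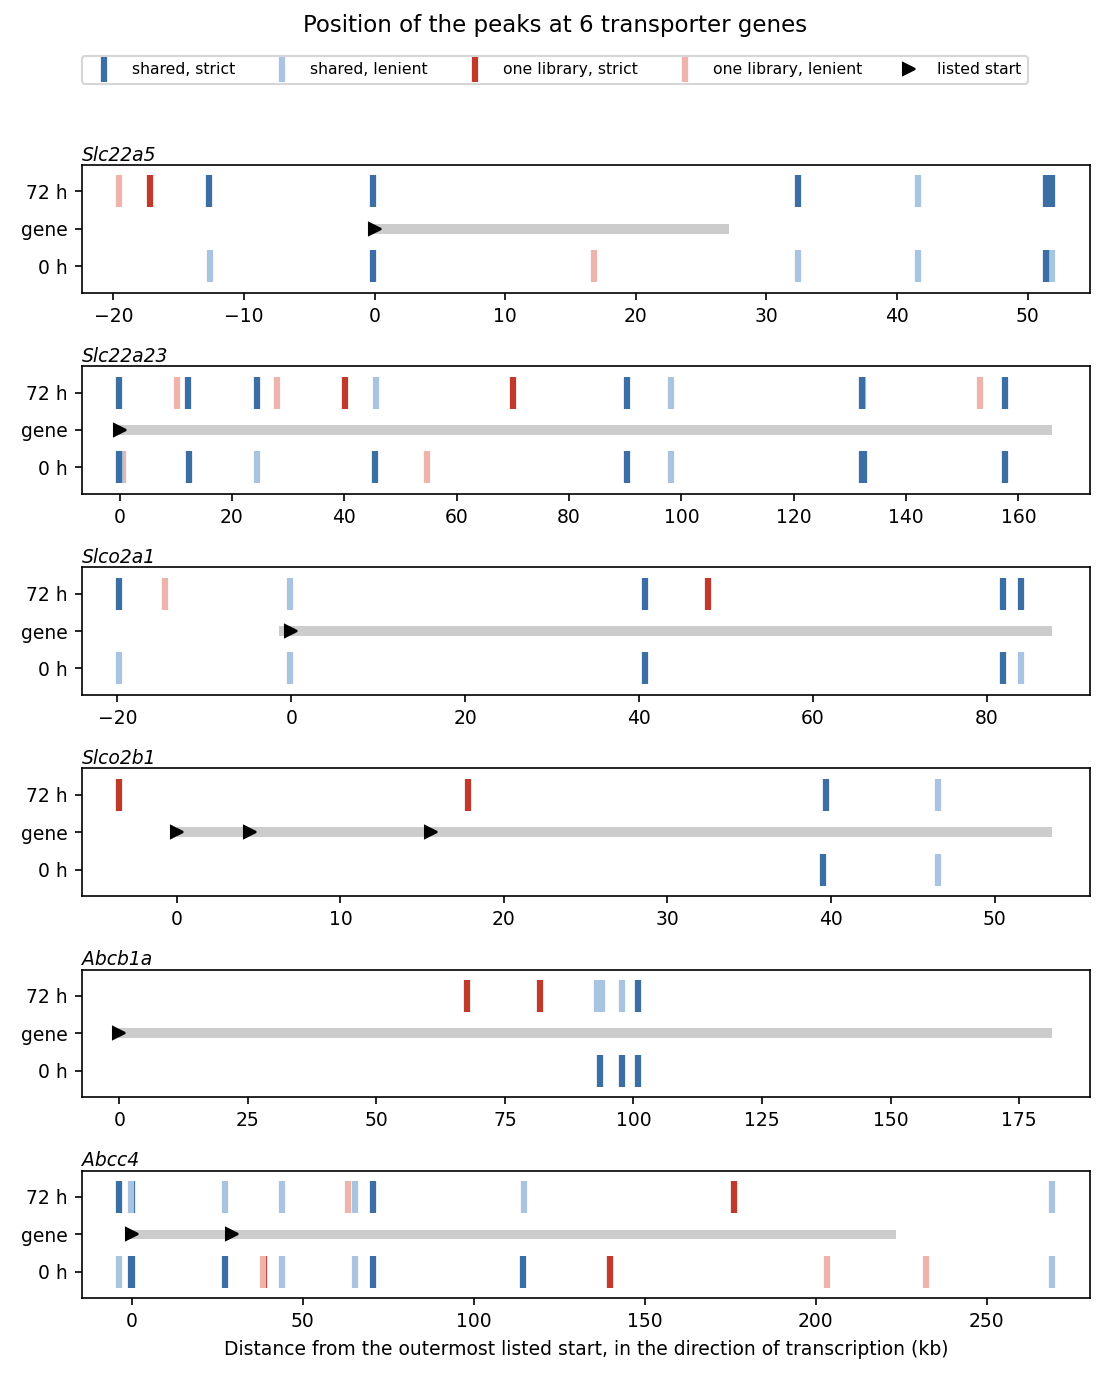
Position of the 0 h peaks (lower row) and 72 h peaks (upper row) of 6 transporter genes, in kb from the outermost listed start along the direction of transcription; grey bars are gene bodies and triangles listed starts. Strict 72 h-only peaks, in dark red in the upper rows, lie 17.2 kb upstream of Slc22a5, 3.52 kb upstream of Slco2b1 and inside Slc22a23, Slco2a1, Abcb1a and Abcc4, and Abcb1a has no peak near its listed start.

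Of the 14 organic anion transporting polypeptide genes, 9 had a peak, with 20 peaks at 0 h and 25 at 72 h. Slco2b1, an intestinal uptake carrier for steroid sulfates and several drugs, had 2 peaks at 0 h and 4 at 72 h. Its 2 added peaks were strict: 1 lay 3.52 kb upstream of the outermost start (chr7:99714562-99715162) and the other 17.8 kb inside the gene (chr7:99693225-99693825), 2.28 kb downstream of its innermost start. None of the 3 listed starts lay under a peak, and the 0 h peak nearest to any of them was 24.0 kb away. Slco2a1 had 5 peaks at 0 h (2 strict) and 7 at 72 h (5 strict), with a strict 72 h-only peak 47.9 kb into the gene (chr9:103056069-103056669). Sites 19.8 kb upstream and 83.9 kb downstream of its start were lenient at 0 h and strict at 72 h.

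The Slco1 genes on chromosome 6 are known from liver, kidney and the blood-brain barrier. Together with Abcc9 they form a block of 7 genes over 1178 kb, to which 1 peak at 0 h and 4 at 72 h were assigned. The only strict peak of 1 library only among these lay 20.6 kb outside Slco1c1, a thyroid hormone carrier (chr6:141590466-141591066). Slco1b2, the hepatic carrier, had 1 lenient shared site 11.3 kb into the gene and 1 lenient 72 h-only peak. Slco4a1, a thyroid hormone carrier of many tissues, had 2 strict peaks in each library, all at its first start, and Slco4c1 had 1. Slco3a1 had 5 peaks in each library. Slco5a1, an orphan, had 4 peaks at 0 h and 2 at 72 h, with a strict 0 h-only peak 9.11 kb inside one gene end (chr1:12875357-12875957) and a shared site strict at 0 h only.

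The proton-coupled extrusion carriers Slc47a1 (MATE1) and Slc47a2 lie side by side on chromosome 11 and held 6 peaks at 0 h and 10 at 72 h. Slc47a1 had 4 and 7 peaks, 3 of them strict in each library. Its 3 further peaks at 72 h were lenient and 72 h only: 1 at a gene end, 1 inside the gene and 1 at 18.9 kb outside (chr11:61397430-61398030), over the start of the lncRNA gene Gm42081. At each of the 2 genes 1 shared site was lenient at 0 h and strict at 72 h, and neither had a 0 h-only peak.

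The plasma membrane pumps of Abcb split by gene. Abcb1a, which encodes the P-glycoprotein of the intestinal apical membrane, had 3 peaks at 0 h, all strict, and 7 at 72 h, of which 3 were strict. Of the 7, 3 lenient peaks overlapped in a chain and formed 1 site with a 0 h peak, so the rise in sites was smaller than in peaks. Its 2 strict 72 h-only peaks lay 67.6 and 81.9 kb into the gene (chr5:8634357-8634957 and chr5:8648703-8649303). The sites 93.5 and 97.7 kb into the gene went from strict at 0 h to lenient at 72 h, and the site at 100.8 kb was strict in both. No peak lay within 50 kb of the listed start. RefSeq lists 2 transcripts for Abcb1a, and the promoter table holds 1 start, so a start of the other transcript was not placed. The distances given are from the listed start alone. Whether any of these peaks lies at or upstream of the other start is not known here. Abcb1a was therefore called at new places at 72 h while 2 of its 3 earlier sites passed a weaker threshold.

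Abcb1b, the second mouse P-glycoprotein gene, had 1 lenient 0 h-only peak 0.354 kb inside its start and none at 72 h. That peak covered the start of the lncRNA gene Gm5106 on the other strand. Abcb4 (the phosphatidylcholine translocase of bile) had 1 strict peak at its start in each library. Abcb11 (the bile salt export pump) had a strict shared site 13.0 kb upstream of its start and 1 lenient peak of each library alone.

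Peaks of 1 library only covered a listed lncRNA start at 3 genes, Abcb1b, Slc47a1 and Abcc4. At Abcc4 a lenient 72 h-only peak began just before the start of Gm52104 and held few of the bases ahead of it, so no bases are shown. For the other two, the lines give the 250 bases before that start on the lncRNA's strand. All 250 lie in the Abcb1b peak and 227 in the Slc47a1 peak; capitals mark motif matches as before.
Abcb1b, 0 h-only peak, chr5:8798524-8798773, - strand: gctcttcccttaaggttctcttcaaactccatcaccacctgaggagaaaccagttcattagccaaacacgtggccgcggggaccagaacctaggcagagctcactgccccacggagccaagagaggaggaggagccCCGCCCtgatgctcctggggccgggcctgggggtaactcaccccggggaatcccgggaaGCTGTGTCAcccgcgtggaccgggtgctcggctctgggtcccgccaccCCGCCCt
Slc47a1, 72 h-only peak, chr11:61397804-61398053, - strand: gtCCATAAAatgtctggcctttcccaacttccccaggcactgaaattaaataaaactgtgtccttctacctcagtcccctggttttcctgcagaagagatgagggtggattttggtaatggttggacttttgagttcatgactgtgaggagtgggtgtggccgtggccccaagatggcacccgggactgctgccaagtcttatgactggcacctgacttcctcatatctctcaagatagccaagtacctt
The Abcb1b stretch held GGGCGG at 2 places and TGACNNNGC at 1, and the Slc47a1 stretch held TTTATNG at 1. Neither held AGGTCA, GTCTAGAC or GGCGCC.

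The organelle members of Abcb all had peaks, 14 at 0 h and 16 at 72 h. Of their 10 shared sites, 9 were strict in both libraries, 4 of them at Abcb9, against 64.4% of all shared sites. Abcb10, a mitochondrial inner membrane transporter, had 2 peaks at 0 h and 4 at 72 h. Both added peaks were strict, 9.38 kb into the gene (chr8:123973437-123974037) and 5.77 kb upstream of its start (chr8:123988593-123989193). Abcb9, a lysosomal peptide transporter, had 7 and 8 peaks with a strict 72 h-only peak 19.1 kb into the gene (chr5:124076427-124077027). Abcb6 had 1 strict shared peak in each library. Abcb8 had 3 peaks at 0 h and 2 at 72 h; the one that was 0 h only was lenient.

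All 8 drug-type Abcc pumps had peaks, 35 at 0 h and 34 at 72 h. Abcc4, a pump for cyclic nucleotides and prostaglandins, was the only transporter gene with strict peaks of 1 library only at both times. It had 14 peaks at 0 h (7 strict) and 11 at 72 h (4 strict). Its outer start was strict in both libraries. Counted from the inner of its listed starts, the strict 0 h-only peaks lay 9.28 kb (chr14:118667351-118667951) and 110.4 kb downstream (chr14:118566181-118566781). The strict 72 h-only peak lay 146.8 kb downstream (chr14:118529881-118530481). Of its shared sites, 2 were strict at 0 h only and 1 at 72 h only. Abcc4 thus held fewer peaks and fewer strict peaks at 72 h than at 0 h.

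Abcc2 had 3 shared peaks in each library and no peak of 1 library only; a site 4.64 kb upstream of its start was lenient at 0 h and strict at 72 h. Abcc3, the basolateral pump for bile acids and glucuronides, had 6 peaks at 0 h, none of them strict, and 5 at 72 h, 2 of them strict. Both of those were at shared sites, 1 at a gene end and 1 at 22.1 kb inside the gene. Abcc1 had 1 and 2 peaks, with a strict 72 h-only peak 56.0 kb from a gene end (chr16:14417146-14417746). Abcc6, whose human counterpart is mutated in pseudoxanthoma elasticum, also had 1 and 2, with a strict 72 h-only peak 1.64 kb inside a gene end (chr7:46028556-46029156). Abcc5, a pump for cyclic nucleotides, had 3 strict shared peaks in each library and 1 lenient 72 h-only peak. The sulfonylurea receptor gene Abcc8, a potassium channel subunit known from endocrine cells, had 5 peaks at 0 h, none strict, and 3 at 72 h, 1 of them strict.

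Sites called in both libraries give the only graded reading in these lists, since each could pass the strict threshold at 1 time and not at the other. Peaks of both libraries were merged into sites where they overlapped. Of 87 shared sites at transporter genes, 45 were strict in both libraries (51.7%, 40.8 to 62.6; 64.4% of all shared sites). A further 19 were strict at 72 h only (21.8%, 13.7 to 32.0; 13.6% of all), 7 at 0 h only (8.05%, 3.30 to 15.9; 8.43% of all) and 16 in neither (18.4%, 10.9 to 28.1; 13.6% of all). The 19 lay at 15 genes (34.1% of 44, 20.5 to 49.9; background 16.6%) and the 7 at 5 genes, among them Abcb1a, Abcc4, Slc22a23 and Slco5a1 (11.4%, 3.79 to 24.6; background 11.2%). The transporter genes are longer than genes at large, and fewer of their shared peaks lie near a gene end. Genes with like numbers of shared sites were not compared, and the part of length and position was not tested. Of the genes with a site strict at 72 h only, Slc22a5, Slc22a18, Slco2a1 and Abcc3 had 2 each. The share of shared peaks that were strict was 56.7% (46.7 to 66.4) at 0 h and 67.6% (57.7 to 76.6) at 72 h, against 66.4% and 71.8% of all shared peaks.

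**Figure D5:**
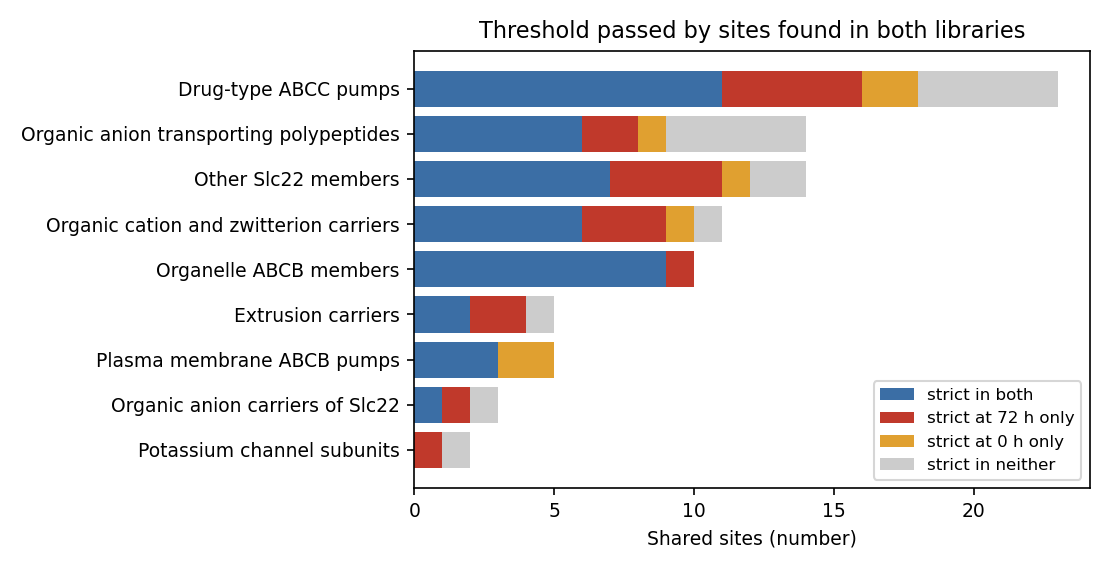
Number of shared sites, called in both libraries, in each group of transporter genes, by the libraries in which they passed 1e-10. Sites strict at 72 h only (red, 19 in all) occur in every group but the plasma membrane Abcb pumps, and sites strict at 0 h only (orange) number 7.

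Regulators and partners of these genes were read in the same way. Of 14 regulators of drug transporter genes, all with a peak, 8 had a strict 72 h-only peak and 2 a strict 0 h-only peak. The backgrounds were 18.6% and 6.66%, and 25.4% for a strict 72 h-only peak among genes with 3 or more peaks. The 14 are rich in peaks, with 72 at 0 h and 87 at 72 h, against a median of 2 per library over all genes with a peak. Genes with as many peaks were not compared, and the part of peak number in these counts was not tested. Nr1i2, the xenobiotic receptor PXR, had 2 peaks at 0 h and 5 at 72 h, 1 of them strict and 72 h only. Nfe2l2, which encodes NRF2, had 5 and 7 peaks with 2 such peaks, and Nr1h4, the bile acid receptor FXR, had 6 and 6 with 1. Nr1i3 (the receptor CAR), Ahr (the dioxin receptor), its partner Arnt and Keap1 (the NRF2 inhibitor) had none.

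Of 18 partner transporters and scaffolds, all with a peak, 9 had a strict 72 h-only peak and 1, Slc28a1, a strict 0 h-only peak. The backgrounds were 18.6% and 6.66%, and 25.4% for a strict 72 h-only peak among genes with 3 or more peaks. The 18 held 46 peaks at 0 h and 80 at 72 h, and all protein-coding genes held 32997 and 37726. Abcg2, the breast cancer resistance protein that shares substrates with P-glycoprotein, had 5 and 8 peaks, 3 of them strict and 72 h only. Slc51a and Slc51b, the 2 subunits of the basolateral bile acid exporter, had no peak at 0 h and 1 and 2 at 72 h. A peak within 1 kb of a gene end was present at 8 of the 18 at 0 h and at 14 at 72 h. Over all genes, including those without any peak, 2.09% had such a peak at 72 h only. Both lists were chosen with earlier results of these data known. Neither list was tested against other genes or compared with genes of like peak number.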

How the data were processed

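ATAC-seq peak lists of the 0 h and 72 h libraries were used, 1 library per time. The authors deposited, per the file names and values, MACS2 summits extended to 601 bp, called per library at p-value thresholds of 1e-5 and 1e-10, plus a list of regions enriched at each time; the deposited rows hold chromosome, start, end and name. Per the submitters' processing notes, the build was mm10 and the tools named, with no roles, include MACS2 2.2.7.1, Bowtie2 2.4.1, bedtools 2.26.0, Picard 2.18.27 and cutadapt 1.9.1. Whether reads were shifted for Tn5 or duplicates removed, and the depth, is not given in the sources used here.

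A peak went to the protein-coding gene holding its midpoint, or else to the nearest within 50 kb, ties going to the nearer gene end, with RefSeq's gene table of GRCm38.p6. That table gives no strand or exons, so exon, intron and UTR were not resolved; starts and strand came from RefSeq's promoter table, which matched 49 of 61 genes. The start windows run from 250 bases before to 50 after a start. Peaks on other sequences (180 at 0 h, 152 at 72 h) were not assigned. Coordinates are 1-based. Overlap, assignment and merging were tested on simulated data. Named genes are those with a strict peak of 1 library only, those with 2 or more peaks in 1 library and none in the other, the 5 with most peaks per library with ties, and 18 with a textbook intestinal role; further genes were named after their values were seen. Values of 2 genes are not reported here by name or drawn by gene, but they are in the counts. The members and lists were chosen with earlier results of these data known. Intervals came from SciPy 1.17.1 and tables from pandas 2.3.3 under Python 3.11.15.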

Additional observations from a re-analysis of the deposited data

How the results depend on the processing

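Over 7 alternatives (window, assignment, overlap, threshold and merging), 53 of 61 recomputed values stayed within 1.5 times the count or within the 95% interval of the share. Counting every gene within 50 kb gave 21 transporter genes with a strict 72 h-only peak in place of 12 and 7 with a strict 0 h-only peak in place of 3, and it put 14.5% of shared 0 h peaks and 13.4% of shared 72 h peaks within 1 kb of a gene end, in place of 28.8% and 27.5%. Reading both libraries at 1e-10 alone gave 22 and 6 such genes, a 72 h-only share of 41.9% in place of 30.6%, and 40.0% of shared 72 h peaks at a gene end. Under those 2 alternatives a peak counts at several genes, or a weaker peak of the other library no longer counts, by construction. The genes with a peak numbered 37 to 49 over the alternatives. None of the alternatives was counted over all genes, so the backgrounds given above do not apply to these values. Alternatives for the strict share and for position were chosen after seeing the data. No paired analysis was possible because each time point is 1 library and no result comes from a test. Depth is unknown, so a peak missing from a library was not detectable there at its threshold and is not shown to be absent.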
